A study of Rattus norvegicus with 49 samples.

Results

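The genes of the interleukin-6 family receptor and of Jak-Stat signalling, together with the cytokine gene Il18, were followed in the ageing rat hippocampus. The genes were Il6st, Il18, Stat3, Jak2, Socs3, Cntf and Lifr, found by the gene symbol of each probe set in the platform annotation. All 7 genes were among the 10411 with a probe set of their own on the array, with 10 of its 15923 probe sets. Il6st had 3 probe sets, Stat3 had 2 and the other genes had 1 each. A probe set was tested where its signal reached 100 on at least 5 arrays, which 8 of the 10 did, belonging to 5 of the 7 genes. The probe sets of Socs3 and Lifr stayed below it.

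RNA was taken from CA1, the pyramidal cell field of the hippocampus, on the left side of Fisher 344 rats. RNA of each rat was hybridised to a single Affymetrix RAE 230A array. The rats were aged 3, 6, 9 and 12 months, with 9 animals at each of these ages, and 23 months, with 13 animals, which gives 49 arrays. All had been trained in the Morris water maze, a test of spatial memory, in the days before the tissue was taken, and the labels give no genotype or treatment besides age. The 23-month rats are those that remained after animals in poor health were removed from the oldest cohort, so they are survivors of that selection. The tissue was bulk CA1, in which a change in the number of cells of a type and a change in the RNA of each cell cannot be told apart.

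Cytokines of the interleukin-6 family, such as interleukin-6, leukaemia inhibitory factor and ciliary neurotrophic factor, signal through receptor complexes that share the subunit gp130, the product of Il6st. Janus kinases bound to the receptor phosphorylate STAT3, which moves to the nucleus and switches on genes that include its own inhibitor Socs3. In the brain this pathway is known for its role in the reactive change of astrocytes, for which Gfap and Vim are textbook marks. Interleukin-18 belongs to another family, that of interleukin-1. It is cut to its active form by caspase-1 and signals through MyD88 to NF-kB.

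The array medians lay between 208 and 224.9. Neuron markers were tested for 19 of 20 genes of the list, and their geometric mean signal per array was 2631 to 2907 at 23 months and 2765 to 2952 at 3 months, so the neuronal content that the label implies was seen on every array of these ages. Ttr, a transcript typical of choroid plexus cells, exceeded a signal of 2000 on 5 arrays, of which 4 were 3 months replicates 4, 6, 7 and 8 and 1 was 23 months replicate 11. Haemoglobin Hbb exceeded 500 on 23 months replicates 5 and 8. Calls of the member probe sets that ended without these arrays are given below. The levels of the pathway genes and cell type markers are given with all arrays only.

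Of the 8 tested probe sets, 4 were called in limma's moderated F-test over 5 ages at an adjusted p under 0.05, where 1.77% of all 9541 tested probe sets were called. The 4 were 2 of Il6st, the only one of Il18 and 1 of the 2 of Stat3. In the F-test those of Il18 and Stat3 stood at the threshold, with adjusted p-values of 0.048 each. The F-test call of Il18 was lost in 35 of 49 leave-one-out fits and in 7 of 15 other alternatives, and that of Stat3 in 37 of 49 and 9 of 16. The same 4 were called at 23 against 3 months, all higher at 23 months, where 3.12% of all probe sets were called in either direction and 2.15% rising. The same 4 also rose along a linear trend in months, where 5.05% of all were called and 3.14% rising. Over all probe sets 300 trends rose and 182 fell, a split that was 238 and 224 when each array was centred on its median. No member was called in limma at 12 against 3 months (background 0.199%), at 9 against 3 months (0.0524%), at 6 against 3 months (0.0105%) or at 23 against 12 months (0.283%). At an unadjusted p under 0.05 these comparisons held 2, 1, 0 and 3 of the 8. Over all 9541 probe sets they held 748, 291, 276 and 806. A plain two-sample test of each probe set, with the same adjustment, also called 0 of the 8 in each of these comparisons. The median difference over all 9541 probe sets at 23 against 3 months was close to 0 (-0.0013 on the log2 scale).

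Sequences before a transcript start are shown for the 3 genes with a probe set called at 23 against 3 months. They are the 250 bases before 1 RefSeq start of each gene on assembly GRCr8, 5′ to 3′ on the strand of the gene.
Il6st, chr2:45809982-45810231, plus strand: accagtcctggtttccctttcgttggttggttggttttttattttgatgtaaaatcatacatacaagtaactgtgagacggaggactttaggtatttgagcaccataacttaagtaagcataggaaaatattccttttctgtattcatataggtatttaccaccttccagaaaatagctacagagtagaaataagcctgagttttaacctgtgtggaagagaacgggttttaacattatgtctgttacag
Il18, chr8:59801822-59802071, plus strand: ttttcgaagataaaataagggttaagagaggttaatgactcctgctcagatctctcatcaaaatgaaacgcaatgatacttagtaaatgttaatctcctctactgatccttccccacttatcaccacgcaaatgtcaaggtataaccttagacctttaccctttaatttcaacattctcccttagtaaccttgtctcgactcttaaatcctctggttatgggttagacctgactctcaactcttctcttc
Stat3, chr10:86363360-86363609, minus strand: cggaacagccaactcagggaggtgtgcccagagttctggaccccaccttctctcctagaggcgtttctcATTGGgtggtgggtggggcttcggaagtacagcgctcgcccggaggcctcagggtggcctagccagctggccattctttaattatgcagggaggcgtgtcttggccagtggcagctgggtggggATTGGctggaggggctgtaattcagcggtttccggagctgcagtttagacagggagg
The capitals in the Stat3 sequence mark CCAAT on the opposite strand, a common promoter box. The windows of Il6st, Stat3, Socs3 and Lifr lie at transcript starts inside the annotated span of the gene. They may therefore not be its main promoter, those of Il6st, Socs3 and Lifr above all. The span is 45798872 to 45839501 on chromosome 2 for Il6st and 86311528 to 86363513 on chromosome 10 for Stat3. For Socs3 it is 103692579 to 103695975 on chromosome 10, minus strand, with the window at 103694719 to 103695018. For Lifr it is 57951787 to 58020357 on chromosome 2, plus strand, with the window at 57963139 to 57963438. Motifs were searched on both strands in windows of 250 bases before to 50 after the start. The letters of the STAT motif, TTCNNNGAA, stood in 0 of the 7 member windows and in 8.87% of the 33469 RefSeq windows. CCAAT stood in those of Stat3 and Lifr and in 37.5% of all windows. A match is a description of letters, and its absence says only that the letters are not in this window.

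Il6st encodes gp130, the shared signalling subunit of the receptors. On probe set 1370957_at its signal at 23 months was 803.8 at the lowest, 1010 at the median and 1320 at the highest, against 542.3, 747.6 and 978 at 3 months. The groups overlapped, but 13 of 13 old animals lay above the mean of the young and 7 of 13 above the highest young animal. The rise was 1.32-fold, or 0.40 ± 0.082 on the log2 scale (SE, 95% interval 0.24 to 0.56), with a limma adjusted p of 9.76e-04. Read through the ages, the mean signal was 770.4 ± 137 (SD, n = 9) at 3 months, 819 ± 123 at 6 months, 880.4 ± 79.2 at 9 months, 941 ± 74.9 at 12 months and 1011 ± 140.4 (n = 13) at 23 months. Each mean was above that of the age before, and the linear trend was 0.19 on the log2 scale for each 10 months (adjusted p = 3.21e-04).

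On this probe set most of the difference was already present in mid-life. The log2 difference was 0.31 (95% interval 0.13 to 0.48) at 12 against 3 months, and 0.094 (-0.070 to 0.26) at 23 against 12 months. Neither passed limma's test over all probe sets, with adjusted p-values of 0.160 and 0.817. The split between early and late adult life is therefore a description of the means.

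The probe set 1373140_at of Il6st followed a like course at a lower signal. At 23 months it stood at 376.8, 449.8 and 560.9 (lowest, median and highest), against 277, 304.7 and 486.1 at 3 months. All 13 old animals lay above the mean of the young, and 4 of 13 above the highest young animal. The rise was 0.46 ± 0.092 on the log2 scale (95% interval 0.28 to 0.65, limma adjusted p = 7.28e-04). The means through the ages were 341 ± 72.4, 379 ± 75.6, 382 ± 40.2, 424 ± 65.8 and 465 ± 55.3 (SD). The trend was 0.21 for each 10 months (adjusted p = 2.51e-04), and the difference at 12 against 3 months was 0.32 (adjusted p = 0.231).

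The probe set 1371926_at of Il6st did not pass any comparison. Its signal was 797.7, 894.5 and 937.3 at 23 months (lowest, median and highest), against 817.2, 852.7 and 946.4 at 3 months, so that 12 of the 13 old animals lay inside the range of the young and 1 below it. The difference was 0.042 on the log2 scale with a 95% interval of -0.038 to 0.12 (limma adjusted p = 0.701), and the trend was 0.031 (adjusted p = 0.378). Its SD within an age was small, 34.2 to 69.8 in signal, and the upper end of its interval lies below the lower ends for the other probe sets of the gene.

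The disagreement between the Il6st probe sets was tested within arrays, as the difference of their log2 signals at 23 and at 3 months. The rise on 1370957_at exceeded that on 1371926_at by 0.36 (two-sided exact permutation test over 497420 arrangements, p = 0.0015, adjusted p = 0.0022 over 3 pairs). The change on 1371926_at fell short of that on 1373140_at, with a difference of -0.42 (exact p = 0.0011, adjusted p = 0.0022). The 2 rising probe sets differed by -0.062, which did not pass (exact p = 0.622). Within ages, where each value is set against its age mean, Pearson's r over the 49 arrays was 0.23 between the rising probe sets, and 0.081 and 0.057 between each of them and 1371926_at. The 3 probe sets share the arrays but were designed on separate sequences. Which transcript of Il6st each one reads is not analysed here.

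**Figure D1:**
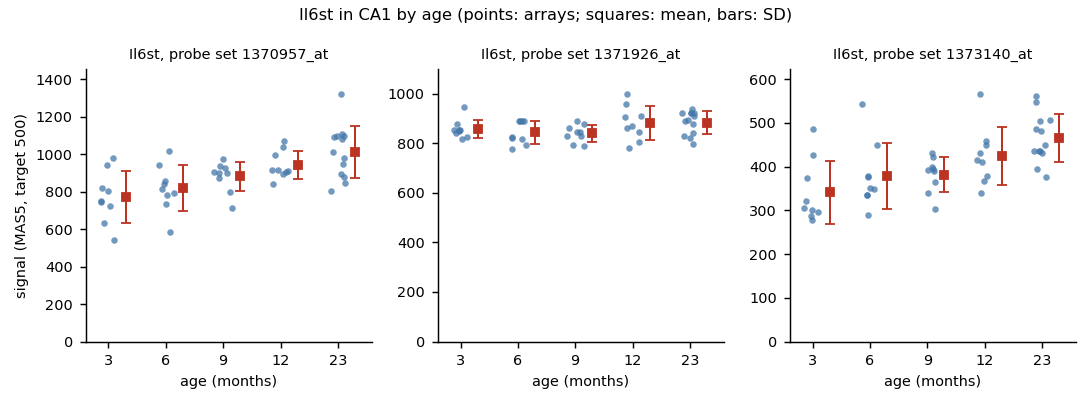
Signal of the 3 Il6st probe sets (y axes, linear, MAS5 scaled to 500) by age in months (x axes). Points are arrays, squares means and bars SD (9 arrays at each age from 3 to 12 months, 13 at 23 months). The means of the left and right panels climb with age, to 1011 and 465 at 23 months, while the middle panel stays between 840 and 883.

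Both calls of Il6st at 23 against 3 months stood in every alternative that tested the probe set, leaving out each array in turn included. Over leave-one-out fits the adjusted p of 1370957_at was at most 0.0060 and that of 1373140_at at most 0.0033. Without the 5 arrays of high Ttr signal the differences were 0.48 (adjusted p = 0.0025) and 0.59 (adjusted p = 1.65e-04).

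Of the ligands of gp130, Cntf alone could be tested, 1 of the 5 family cytokines on the array. It encodes ciliary neurotrophic factor, made by astrocytes and Schwann cells. Cntf stood at 109.2, 145.9 and 192.5 at 23 months (lowest, median and highest), against 95.3, 147 and 182 at 3 months. The groups overlapped, with 2 of 13 old animals above the highest young animal, and the difference was 0.026 on the log2 scale (95% interval -0.16 to 0.21, limma adjusted p = 0.946). Its means through the ages were 144.6 ± 24.2, 139 ± 15.9, 134 ± 9.10, 131 ± 10.9 and 147 ± 26.5 (SD), lowest at 12 months, and the difference at 12 against 3 months was -0.13 (-0.33 to 0.071). The other cytokines never reached a signal of 100 on any of the 49 arrays. Their highest values were 37.0 for Il6, 42.9 for Il11, 85.8 for Lif and 95.8 for Ctf1, and they were not tested.

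Lifr encodes the receptor of leukaemia inhibitory factor, which pairs with gp130. It was too low to be tested, with a signal of at least 100 on 3 of 49 arrays and a highest value of 115.2. At 23 months it stood at 30.5, 69.8 and 98.7, against 9.1, 27.8 and 115.2 at 3 months (lowest, median and highest). The range at 23 months lay inside that at 3 months. In a fit with no filter on low signal the difference was 0.84 (95% interval 0.17 to 1.51) and did not pass (limma adjusted p = 0.216). Of the receptor genes, 4 of the 5 on the array were tested. Il6st rose, none fell, and the median difference of the 4 was 0.15 against 8.2e-04 over all tested genes. Genes of this and the later lists were counted by their brightest probe set. Of all tested probe sets 2.15% were called rising. Il6r, which encodes the α subunit that binds interleukin-6, stood at 127 ± 27.3 at 23 months and 110 ± 20.7 at 3 months (SD), a difference of 0.20 that did not pass (adjusted p = 0.507). Cntfr, the binding subunit for ciliary neurotrophic factor, differed by 0.091 (adjusted p = 0.827). Il6r and Cntfr were singled out after their values were seen.

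Jak2 encodes a Janus kinase that binds gp130. Its signal was 154.5, 195.2 and 272.9 at 23 months (lowest, median and highest), against 146.6, 170.3 and 227.8 at 3 months. The groups overlapped, and 8 of 13 old animals lay above the mean of the young. The difference was 0.12 on the log2 scale (95% interval -0.085 to 0.33, limma adjusted p = 0.645), and the interval leaves room for a rise as large as 0.33. Its mean was highest at 12 months, at 209 ± 38.7 (SD, n = 9), against 183 ± 29.3 at 3 months, which did not pass either (0.19, adjusted p = 0.735). None of the 3 tested Janus kinase genes was called. Tyk2, which also binds gp130, differed by 0.19 (adjusted p = 0.444).

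Stat3 encodes the transcription factor that carries the signal to the nucleus. On probe set 1370224_at its signal was 334.9, 417.7 and 544.8 at 23 months (lowest, median and highest), against 273.5, 306.5 and 494.3 at 3 months. All 13 old animals lay above the mean of the young, and 3 of 13 above the highest young animal. The highest young value came from replicate 9, and the next young animal stood at 368.5. The rise was 1.32-fold, or 0.40 ± 0.11 on the log2 scale (SE, 95% interval 0.18 to 0.62, limma adjusted p = 0.026). The means through the ages were 334 ± 72.6, 326 ± 91.3, 353 ± 49.9, 360.3 ± 56.3 and 437 ± 65.7 (SD). The trend was 0.22 for each 10 months (adjusted p = 0.0014).

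Unlike on the rising probe sets of Il6st, the larger part of the Stat3 difference lay after 12 months, as a description of the means. It was 0.28 (95% interval 0.061 to 0.50) at 23 against 12 months and 0.12 (-0.12 to 0.36) at 12 against 3 months, neither passing limma's test (adjusted p = 0.420 and 0.856). Whether the 2 genes differ in this course was not tested.

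The probe set 1371781_at of Stat3 was also higher in the old animals, without passing. Its signal was 166.1, 232.1 and 309.1 at 23 months, against 161.6, 191.4 and 251.2 at 3 months (lowest, median and highest). Of the old animals 10 of 13 lay above the mean of the young and 4 of 13 above the highest. The difference was 0.24 (95% interval 0.018 to 0.46, limma adjusted p = 0.278) at 23 against 3 months and 0.29 (0.071 to 0.51, adjusted p = 0.383) at 23 against 12 months. Its means of 198 ± 27.1, 199.5 ± 19.9, 209 ± 41.9, 192 ± 30.8 and 236 ± 47.2 (SD) were close to level up to 12 months.

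The Stat3 call at 23 against 3 months on 1370224_at was near the threshold. It ended with the plain two-sample test (adjusted p = 0.053) and without the 5 arrays of high Ttr signal (0.29, adjusted p = 0.362). It ended as well without any 1 of 3 months replicates 1, 4, 5, 6 and 7 or 23 months replicate 3, with an adjusted p of 0.0505 to 0.063. Of these, 3 months replicates 4, 6 and 7 are arrays of high Ttr signal. Over the 17 alternatives besides leave-one-out fits the difference lay between 0.29 and 0.48. Of the 7 STAT genes of the list 4 were tested and Stat3 alone was called. Stat5b, a STAT of growth hormone signalling, differed by -0.28 (adjusted p = 0.376), and Stat5a by 0.19 (adjusted p = 0.468), both singled out after their values were seen.

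Socs3, the feedback inhibitor of gp130 signalling and itself a target of STAT3, was below the filter, with a signal of at least 100 on 4 of 49 arrays and a highest value of 126.6. It stood at 12.2, 54.1 and 97.5 at 23 months, against 45.1, 68 and 101.2 at 3 months (lowest, median and highest). The difference was -0.48 with a 95% interval of -1.05 to 0.078 in the fit without a filter (limma adjusted p = 0.500). It ran opposite to that of Stat3, and at this signal no change of Socs3 was shown. Of the 15 inhibitor and phosphatase genes on the array 9 were tested, 1 rose and none fell. The riser was Ptpn11, which encodes the phosphatase SHP2 that binds gp130 and links it to the Ras-MAPK route. Ptpn11 stood at 3789, 4394 and 5181 at 23 months, against 3188, 3733 and 3940 at 3 months (lowest, median and highest), so the groups overlapped. The rise was 1.23-fold, or 0.29 ± 0.047 on the log2 scale (limma adjusted p = 1.83e-05), with 13 of 13 old animals above the mean of the young. A second, dimmer probe set of Ptpn11 differed by 0.41 and did not pass (adjusted p = 0.279). None of the 8 tested genes that lead from gp130 to Ras-MAPK and PI3K was called. Gab1, a docking protein, differed by 0.13 (adjusted p = 0.287) and Gab2 by 0.26 (adjusted p = 0.520).

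**Figure D2:**
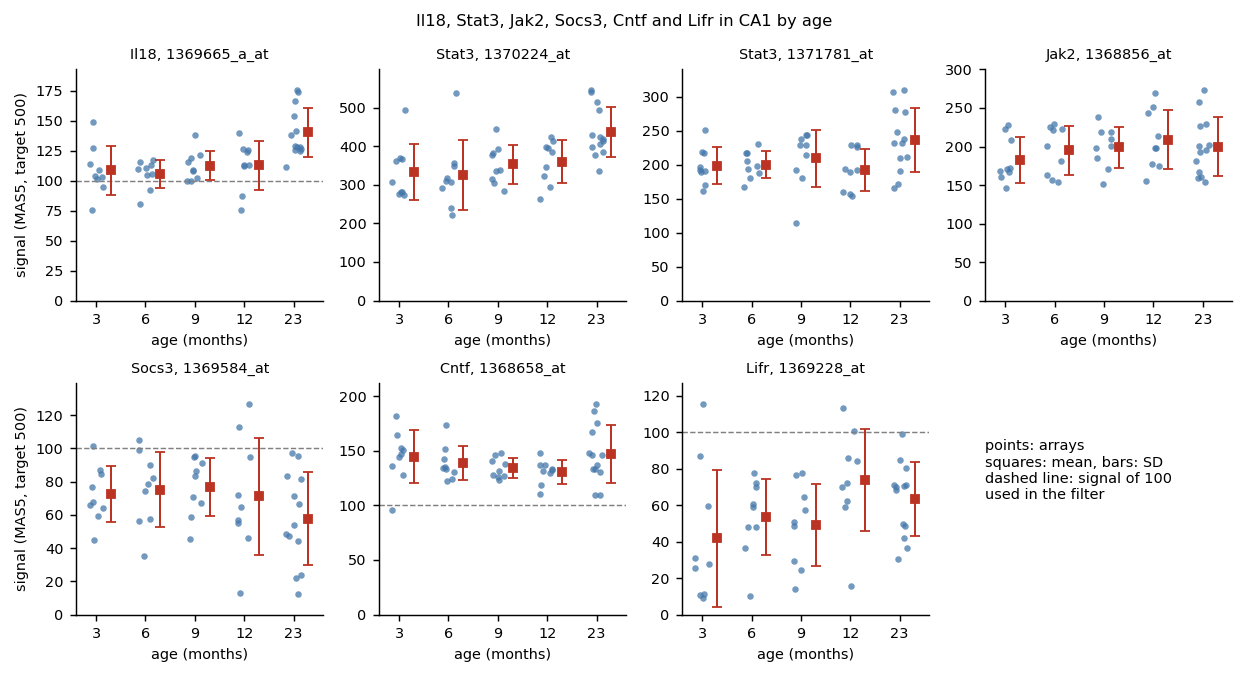
Signal of Il18, both Stat3 probe sets, Jak2, Socs3, Cntf and Lifr (y axes, linear, MAS5 scaled to 500) by age in months (x axes). Points are arrays, squares means, bars SD, and the dashed line is the signal of 100 used in the filter. Il18 and Stat3 1370224_at are highest at 23 months, with means of 140 and 437, and Socs3 and Lifr lie mostly below the dashed line.

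Il18 encodes interleukin-18, a cytokine of the interleukin-1 family that microglia can make. Its probe set 1369665_a_at was dim, reaching a signal of 100 on 42 of 49 arrays. It stood at 111.6, 129.1 and 175.2 at 23 months (lowest, median and highest), against 75.1, 103.9 and 148.8 at 3 months. All 13 old animals lay above the mean of the young and 4 of 13 above the highest young animal. The rise was 1.30-fold, or 0.38 ± 0.10 on the log2 scale (SE, 95% interval 0.17 to 0.59, limma adjusted p = 0.024).

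As a description of the means, the larger part of the Il18 rise lay after 12 months. Its means were 108 ± 20.7, 105 ± 11.8, 113 ± 12.5, 113 ± 20.2 and 140.1 ± 20.6 (SD) through the ages, so that the means of the first 4 ages lay between 105 and 113. The difference was 0.055 (95% interval -0.17 to 0.28) at 12 against 3 months and 0.32 (0.12 to 0.53) at 23 against 12 months. Of the 13 oldest animals 12 lay above the mean at 12 months and 5 above the highest animal of that age. Neither step passed limma's test over all probe sets (adjusted p = 0.945 and 0.266), whereas the trend did (0.21 for each 10 months, adjusted p = 0.0017). The call at 23 against 3 months ended with quantile normalization (0.34, adjusted p = 0.0996) and without the arrays of high Ttr signal (0.39, adjusted p = 0.132). It also ended without 3 months replicate 3, the lowest young animal (0.32, adjusted p = 0.081), without 3 months replicate 5 (0.36, adjusted p = 0.053), and without the 2 arrays of high Hbb signal (0.36, adjusted p = 0.055). The plain two-sample test and a fit of only these 2 ages gave adjusted p-values of 0.055 and 0.065.

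**Figure D3:**
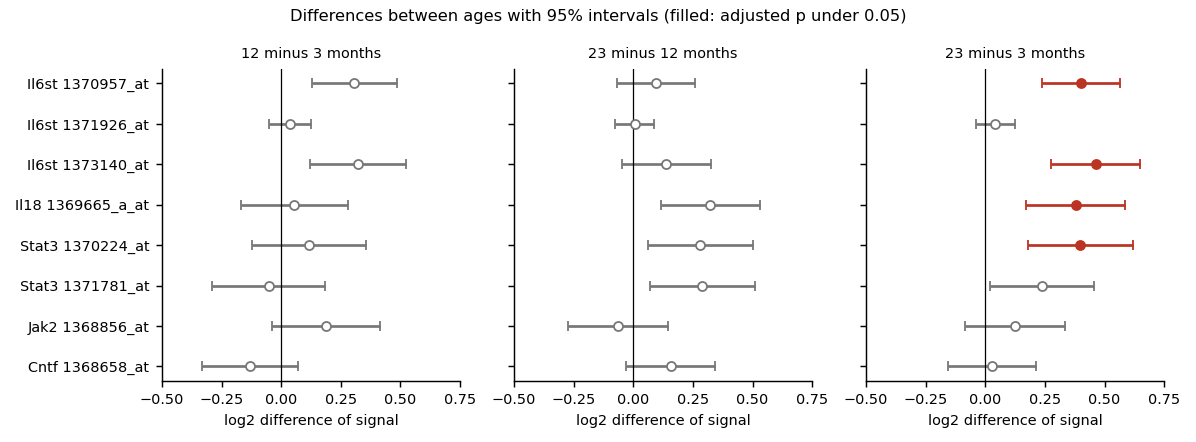
Log2 difference of signal (x axes) with its 95% interval from limma for the 8 tested probe sets (y axis) at 12 minus 3, 23 minus 12 and 23 minus 3 months. Filled points passed an adjusted p of 0.05. Il6st 1370957_at and 1373140_at stand at 0.31 and 0.32 in the left panel, Il18 and Stat3 1370224_at at 0.32 and 0.28 in the middle panel, and the 4 filled points are all in the right panel.

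Il33 was the other gene called among those that encode cytokines of the interleukin-1 family, their receptors and the proteins that process them. Interleukin-33 is a nuclear alarm cytokine made by glia. Il33 stood at 548.8, 623 and 714.5 at 23 months, against 444.5, 510.2 and 547.8 at 3 months (lowest, median and highest). The 2 groups did not overlap on this probe set, as for 0.335% of all tested probe sets. The rise was 1.24-fold (0.31 ± 0.063 on the log2 scale, limma adjusted p = 7.46e-04). A dimmer probe set of Il33 differed by 0.35 and did not pass (adjusted p = 0.075). Of the 18 genes of the list 13 were on the array and 7 were tested. Il18 and Il33 rose, where 2.15% of all tested probe sets rose, and none fell. All 7, Il18 itself among them, were higher at 23 months, with a median difference of 0.33. The median over all tested genes was 8.2e-04, and the share of them that were higher was not counted. Casp1 and Casp4 were close to the filter, with means of 76.4 and 85.3 at 3 months and 102 and 107 at 23 months. No 3-month value of Casp1 reached 100, so it passed the filter through older animals. Casp1, the protease that cuts pro-interleukin-18, differed by 0.41 (adjusted p = 0.054), and Pycard, its inflammasome adaptor, by 0.38 (adjusted p = 0.077). Il18bp, which encodes the protein that binds and blocks interleukin-18, differed by 0.17 (adjusted p = 0.630). These 3 and Casp4 were singled out after their values were seen. None of the 10 tested genes from the interleukin-18 receptor to NF-kB was called. Nfkbia, an inhibitor and target of NF-kB, differed by 0.26 (adjusted p = 0.476), and Nfkb1 by 0.14 (adjusted p = 0.485).

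Among known targets of STAT3, 15 of the 25 genes on the array were tested. Of these 3 rose and none fell, where 2.15% of all tested probe sets rose. The 3 were Gfap, the intermediate filament of astrocytes, Vim, the filament vimentin, and A2m, a protease inhibitor of the rat acute phase. A2m stood at 267.3, 348.9 and 488.3 at 23 months, against 240.6, 262.2 and 319.9 at 3 months (lowest, median and highest). Of the old animals 12 of 13 lay above the mean of the young, and the rise was 1.34-fold (0.42 ± 0.077 on the log2 scale, limma adjusted p = 1.68e-04). Gfap rose 1.32-fold (adjusted p = 3.21e-06) and Vim 1.52-fold (adjusted p = 1.21e-04). Of the 15 targets 8 were higher and 7 lower at 23 months, and their median difference was 0.064. Cp, the copper carrier ceruloplasmin, differed by 0.50 without passing (adjusted p = 0.158) and was singled out after its value was seen. Junb, an immediate early gene, differed by -0.14 (adjusted p = 0.540) and was singled out in the same way. Acute-phase targets such as Lcn2 and Timp1 never reached a signal of 100, with highest values of 67.9 and 99.9.

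**Figure D4:**
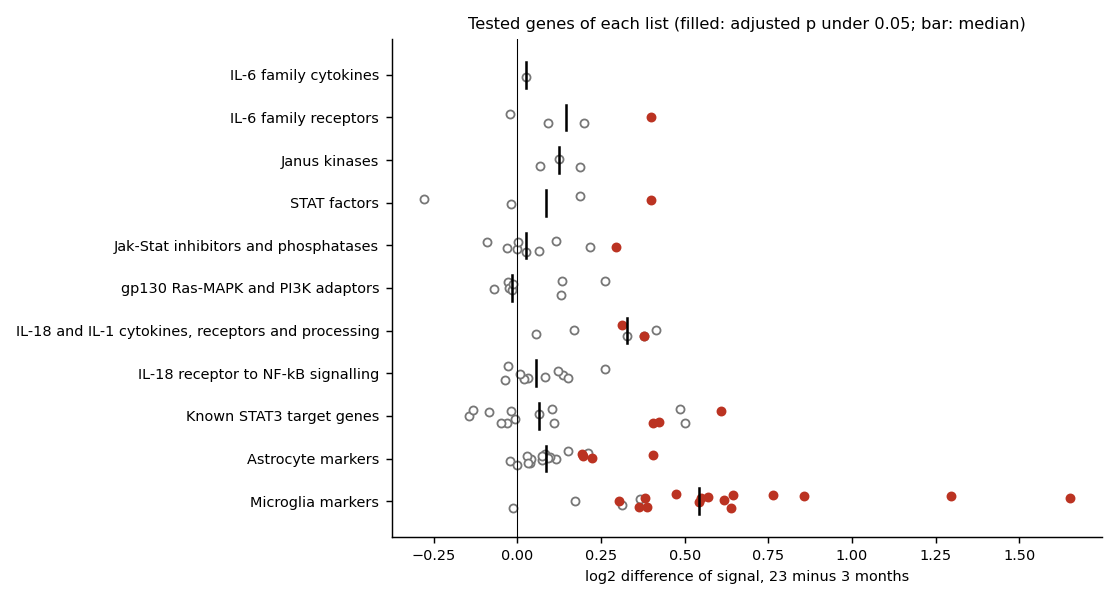
Log2 difference at 23 minus 3 months (x axis) of every tested gene, by its brightest probe set, in the pathway lists and in the astrocyte and microglia marker lists (y axis). Filled points passed limma's adjusted p of 0.05 and bars are medians. The list with Il18 and Il33 has a median of 0.33, that of STAT3 targets 0.064 and that of microglia markers 0.54.

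**Figure D5:**
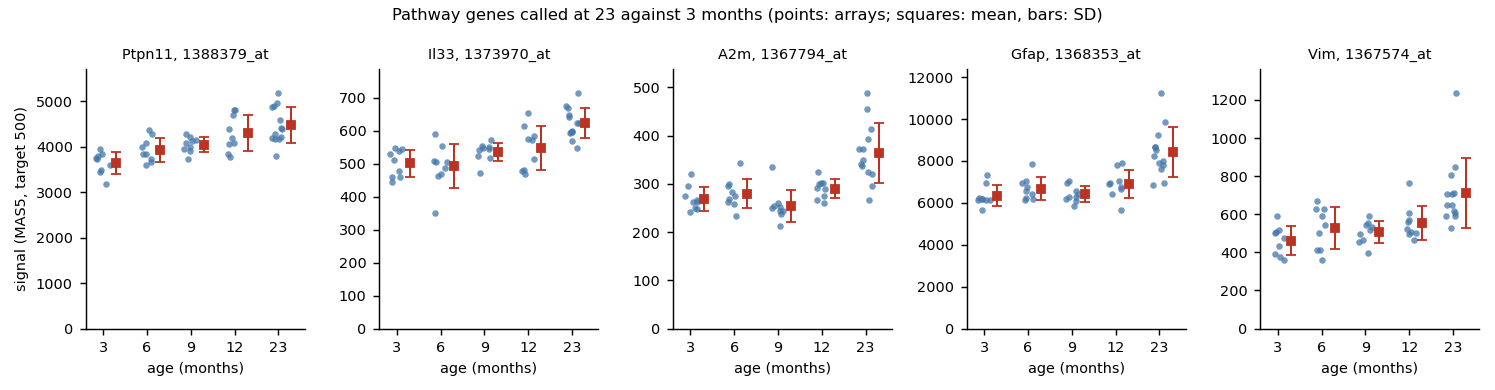
Signal of Ptpn11, Il33, A2m, Gfap and Vim (y axes, linear, MAS5 scaled to 500) by age in months (x axes). Points are arrays, squares means and bars SD. The means at 23 months are 4472 for Ptpn11, 623 for Il33 and 364 for A2m, each the highest of its panel.

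Markers of other cell types moved over the same ages. Of 19 tested microglia markers 15 rose and none fell at 23 against 3 months, where 2.15% of all tested probe sets rose. Their median difference was 0.54. Their geometric mean signal per array was 393 to 707 at 23 months and 304 to 342 at 3 months. The markers below the filter were Cd68, Ptprc and Ptpn6. Of 18 tested astrocyte markers 4 rose and none fell, with a median of 0.087 and a range of 2032 to 2471 at 23 months, against 1925 to 2299 at 3 months. The 4 were Gfap (0.40, also counted among the STAT3 targets), S100b (0.22), Mlc1 (0.20) and Slc1a3 (0.19). Of the 18 astrocyte markers 16 were higher and 2 lower at 23 months. Gja1 and Aqp4, astrocyte markers singled out after their values were seen, differed by -0.0017 and 0.028. Of 19 neuron markers Stmn2 alone fell and of 10 oligodendrocyte markers Ugt8 alone fell, and of 10 meningeal and fibroblast markers Serping1 alone rose. None of the 16 endothelial and mural markers and none of the 9 choroid plexus markers was called.

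Within ages, the 8 member probe sets were set against the mean log2 level of the microglia and of the astrocyte markers, 16 relations in all. None passed Benjamini-Hochberg adjustment over the 16 (permutations within ages, 49 arrays). Il6st 1370957_at had Pearson's r of 0.0098 and Spearman's rho of 0.060 with the microglia markers (permutation p = 0.950 and 0.690, adjusted 0.950 and 0.850). For Il18 they were 0.22 and 0.20 (p = 0.134 and 0.190, adjusted 0.429 and 0.380). Both depended on 23 months replicate 9, the array of high MHC class II signal, but in opposite directions. Without it r was 0.18 for Il6st 1370957_at (adjusted p = 0.404) and 0.12 for Il18 (adjusted p = 0.541). Within the other 12 oldest animals r was 0.53 and rho 0.59 for Il6st 1370957_at. There they were 0.76 and 0.56 for Il6st 1371926_at, and -0.20 and -0.0070 for 1373140_at, all given without a test. The relation of smallest p was negative, between Stat3 1370224_at and the astrocyte markers, with r of -0.41 and rho of -0.38 (p = 0.0039 and 0.0097, adjusted 0.062 and 0.155). It was r = -0.41 without the 2 arrays farthest from the median marker level. Within the 13 oldest animals alone r was -0.34 (p = 0.251). The other Stat3 probe set had r of 0.31 with the same markers (p = 0.034, adjusted 0.268). A missed threshold does not show that the marker levels and the members are unrelated, and the part of cell numbers in the rises was not tested.

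Among the members themselves, the highest of 45 within-age correlations over the 49 arrays was that of Il6st 1370957_at with Cntf (r = 0.54), and the lowest was that of Il6st 1371926_at with Stat3 1371781_at (r = -0.29). These values share the arrays and their scaling and are given as a description. Il6st 1370957_at was the highest of its age on array 9 at 3, 6 and 9 months, and Cntf at 6 and 9 months. Without the 5 arrays numbered 9, an alternative chosen after seeing the data, Stat3 1370224_at differed by 0.48 (limma adjusted p = 0.0014) and the Il18 call ended (0.35, adjusted p = 0.087).

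The genes whose log2 signal ran most like that of Il6st 1370957_at over the 49 arrays were Acadl (Pearson's r = 0.73), Cd53, a gene of the microglia list (0.66), Srrm2 (0.64), Vcl (0.64) and Id4 (0.63). After the age means were subtracted they were Srrm2 (0.68), Smarca4 (0.65), Nipbl (0.62), Ddx6 (0.59) and Pik3ca (0.59), so that Srrm2 alone stood in both sets of 5. For Il18 they were Gfap (0.68), Wnk1 (0.65), Foxn3 (0.64), Vim (0.64) and Anxa3 (0.63). After the age means were subtracted they were Tcap (0.60), Cdc42ep1 (0.59), Setd3 (0.51), Gna12 (0.50) and LOC100911177 (0.49). No gene stood in both sets for Il18. These likenesses have no test, and the arrays share their normalization.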

How the data were processed

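The authors deposited microarray intensities on a linear scale. MAS5 made them per the submitters' processing notes, and the design text gives 500 as the target to which arrays were scaled. Presence calls and the batches of arrays are not used here. The labels' 23 months was used for the oldest group, which the design text gives as 25 months in 1 place. Each array is a separate animal, so the tests weigh differences against animal-to-animal spread. Precision is limited by the number of arrays.

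Of 15923 probe sets 57 were controls. The platform annotation gave 1 symbol for 12789, several for 312 and did not list 2822. RefSeq's GRCr8 table matched 12754 of the probe sets with 1 symbol and gave names and, for all 7 members, the sequence around 1 transcript start. Probe sets with 1 symbol and a signal of at least 100 on at least 5 arrays were tested, 9541 in all. Signals under 16 were set to 16 (0.0539% of the tested values) and log2 taken, with no further scaling. 1 fit of all 49 arrays gave a mean per age, in limma 3.58.1 under R 4.3.3 (lmFit, then eBayes with trend). P-values were adjusted over all 9541 probe sets by the Benjamini-Hochberg method. On simulated data shaped as 23 against 3 months, with 9541 probe sets, log2 changes of 0.25, 0.5, 1 and 2 were recovered for 22, 43, 50 and 50 of 50 probe sets, and 13 of 178 calls were false. Permutation tests (Python 3.11.15, NumPy 2.4.6) were two-sided, with 100000 draws where not exact. No per-sample column was left unused (0 of them).

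The members and the gene lists, which came from textbook knowledge, were chosen with earlier results of these data known. In each pathway list the genes called, or otherwise the 2 of smallest p, were named, with the brightest probe set for each gene, and the 5 genes of highest correlation for Il6st and Il18. Other uncalled or untested genes of the lists, such as Il6r, Stat5b, Il18bp, Casp1 and Lcn2, were singled out after their values were seen. Alternatives covered the floor, the filters on signal and annotation, normalization, gene level, variance model, replicate block, plain tests, fits of 2 ages, arrays of high Ttr, Hbb or MHC class II signal, and each array left out in turn.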

Additional observations from a re-analysis of the deposited data

Results flagged for a closer look

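In 4 of the 40 age groups examined for the 8 tested probe sets, 1 array stood apart by Dixon's test at the 95% level, where chance flags about 1 in 20 groups. For Il6st 1371926_at, 3 months replicate 4 stood at a signal of 946.4, with the next animal at 879.3 and the lowest at 817.2. For Stat3 1370224_at, 3 months replicate 9 stood at 494.3, with the next at 368.5 and the lowest at 273.5. On the same probe set 6 months replicate 9 stood at 538.3, with the next at 357.5 and the lowest at 222.2. For Stat3 1371781_at, 9 months replicate 5 was the lowest at 114.3, with the next at 179.7 and the highest at 243.6. The causes were not tested.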

How the results depend on the processing

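The linear trends of Il6st 1370957_at, Il6st 1373140_at, Stat3 1370224_at and Il18 passed in every alternative that tested them and without any 1 array. With a signal of 200 required, Il18 was not tested. The count of 4 called members in the F-test was less stable: 2 with median centring, 2 without the arrays of high Ttr signal, 2 without the array of high MHC class II signal, 2 without the arrays of high Hbb signal, 1 with the replicate block, and 2 to 4 over leave-one-out fits, of which 44 of 49 gave fewer than 4 and 28 gave 2. At 23 against 3 months the count was 2 with the plain two-sample test, 2 without the arrays of high Ttr signal and 2 to 4 over leave-one-out fits, where only the fit without 3 months replicate 5 gave 2. At the other contrasts it was 0 throughout. With median centring 1 relation to markers passed, Il6st 1373140_at with astrocyte markers (r = 0.46, adjusted p = 0.031).

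Values near 0 changed sign. Cntf at 23 against 3 months was -0.0098 with quantile normalization, -0.061 with the replicate block and -0.046 to 0.070 over leave-one-out fits, and its trend was -0.027 with the block. Il6st 1371926_at at 23 against 12 months was -0.013 with median centring, -0.016 with the block and -0.016 to 0.029 over leave-one-out fits. Its r with microglia markers was -0.017 with median centring and -0.0034 without the arrays of high Ttr signal, and that of Jak2 with astrocyte markers was 0.047 with median centring. The difference between Il6st 1370957_at and 1373140_at was -0.12 to 0.0050 over leave-one-out values. The causes were not tested.

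The labels give no shared batch by number, and not every same-numbered pair of arrays correlated over 0.1, so numbers were not taken to pair the arrays. Same-numbered pairs correlated by -0.129 to 0.362 (median 0.0515, 33 of 86 over 0.1), other pairs had a median of -0.0119, and 17 of 49 arrays correlated best with an array of their own number, which hints at some sharing by number. The numbers were unlike in this: the median ran from -0.0508 for number 2 to 0.188 for number 1, where 7 of 10 pairs were over 0.1. With the number as a block the call of Stat3 1370224_at at 23 against 3 months ended (0.32, adjusted p = 0.127), as did the F-test call of Il6st 1370957_at (adjusted p = 0.121). The 23-month arrays numbered 10, 11, 13, 14 and 15 have no array of the same number at another age. In the block fit they add nothing to the difference between ages, so a call lost there does not measure sharing by number alone. Signals close to 100 limit what Il18, Cntf, Socs3, Lifr, Casp1, Casp4, Pycard and Il18bp can show.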
